A study of Mus musculus with 8 samples.

Results

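The YAP-TEAD and VGLL3 axis was described as 10 gene symbols, which are the coactivators Yap1 and Wwtr1, the cofactor Vgll3, the TEAD factors Tead1, Tead2 and Tead3, and the pathway or target genes Amotl2, Ajuba, Lats2 and Axl2. The symbols were proposed with the difference between the 2 culture conditions in view, so every difference given for them is a description and carries no test. Of the 10 symbols, 9 matched a row among the 13387 genes of the deposited count table, and Axl2 matched none.

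The libraries were made from primary C57BL/6 murine bone marrow cells that had been enriched for MKs with CD41 beads. MKs were cultured alone (4 libraries) or cocultured with wild-type MSCs (4 libraries) for 18 hours. Mice were 8 to 12 weeks old, and 5 wells were pooled for each library. Both groups were kept in medium that contained thrombopoietin, the cytokine that drives MK maturation, so every comparison is made in its presence. MSCs had been sorted as CD45-Ter119-CD31-CD51+PDGFRα+ cells and had adhered to the plate beforehand. MKs in suspension were separated from the adherent MSCs by hand, and the labels describe the sequenced cells as MKs after removal of platelets, whereas the methods describe platelets. The experiment is described as using 4 mice per group, but the labels do not tie a library to an animal or culture. The p-values therefore measure the spread between these libraries, which may be technical in part.

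In the Hippo pathway, the kinases Mst1 and Mst2 (genes Stk4 and Stk3) act on Lats1 and Lats2, which phosphorylate the coactivators YAP (gene Yap1) and TAZ (gene Wwtr1) and keep them out of the nucleus. YAP and TAZ do not bind DNA on their own, and in the nucleus they bind TEAD factors and switch on genes of adhesion, matrix and growth. Proteins of the vestigial-like (VGLL) family bind the same TEAD factors. The pathway is best known in adherent cells, such as stromal, epithelial and endothelial cells, where it responds to stiffness and cell contact.

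TEAD factors recognise a core of 6 bases, GGAATG, or CATTCC on the other strand. The stretch from 250 bases before to 50 bases after each RefSeq transcript start (GRCm38.p6) was searched on both strands for this core. The 250 bases before the start of Vgll3 and of Ajuba are shown because these are the members with the highest level per kilobase of merged exons in the cocultures, and shorter windows around the core are shown for other members and for a pair of target genes. Each is written 5′ to 3′ on the strand of its gene, with the core in capitals. The Tead3 stretch also holds a further copy of the core that is left in lower case.
Vgll3, chr16:65814939-65815188, plus strand: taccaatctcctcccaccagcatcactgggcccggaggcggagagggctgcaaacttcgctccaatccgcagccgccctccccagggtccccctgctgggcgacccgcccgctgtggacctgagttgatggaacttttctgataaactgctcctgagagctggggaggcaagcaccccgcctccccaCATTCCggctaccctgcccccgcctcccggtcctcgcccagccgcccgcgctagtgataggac
Ajuba, chr14:54577662-54577911, minus strand: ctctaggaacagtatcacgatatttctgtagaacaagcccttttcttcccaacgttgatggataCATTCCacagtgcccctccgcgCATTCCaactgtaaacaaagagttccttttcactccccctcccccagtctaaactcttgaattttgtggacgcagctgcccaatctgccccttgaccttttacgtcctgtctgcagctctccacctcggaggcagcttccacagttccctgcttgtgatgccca
Yap1, chr9:8004720-8004749, minus strand: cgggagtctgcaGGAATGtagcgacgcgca
Wwtr1, chr3:57576029-57576058, minus strand: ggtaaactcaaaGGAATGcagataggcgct
Amotl2, chr9:102717727-102717756, plus strand: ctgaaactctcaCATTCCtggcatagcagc
Tead3, chr17:28350706-28350735, minus strand: tccggccgggctCATTCCgtacattccggc
Lats2, chr14:57746102-57746131, minus strand: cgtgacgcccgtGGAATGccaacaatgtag
Ccn1 (target), chr3:145650071-145650100, minus strand: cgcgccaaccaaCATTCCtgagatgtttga
Axl (target), chr7:25788949-25788978, minus strand: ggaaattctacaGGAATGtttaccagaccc

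The core was present in 9 of 12 windows of the members, which belonged to 7 of the 8 members with a promoter entry (87.5%). Across all genes with an entry, 4481 of 27025 held it (16.6%), and among the genes tested here 1294 of 9311 did (13.9%). Counted from the transcript start, with negative positions before it, Ajuba had 2 copies that began at -186 and -164. The single copy began at -63 in Vgll3, at -65 in Amotl2 and at -141 in Yap1. In Wwtr1 1 copy lay at -170 and -136 from its 2 annotated starts. Tead3 had copies in 2 of its 3 annotated windows, at -182, -123, -114 and 2. The copy at -123 is the one in capitals above, and the copy at -114 follows it in lower case. The Lats2 copy lay at 4 after a start. Tead2 held none in its window, and Tead1 had no entry in the promoter table. Among the 13 listed YAP/TAZ target genes with an entry, 5 held the core (38.5%), namely Ankrd1, Axl, Ccn1, Crim1 and Ptpn14. Of 26 listed Hippo regulators with an entry, 5 held it (19.2%). A match of 6 letters is not evidence that a factor binds there.

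**Figure D1:**
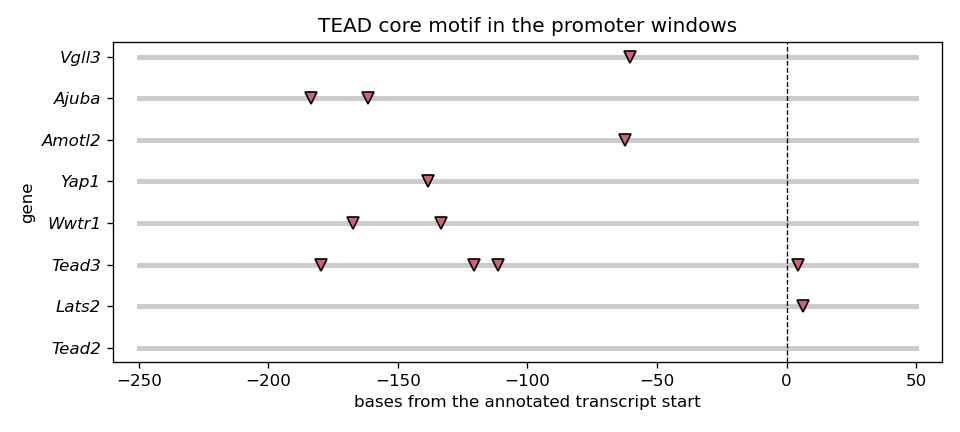
Positions of the TEAD core in the promoter windows of the members, with the distance from the RefSeq transcript start in bases on the horizontal axis (negative before the start) and 1 row per gene. Ajuba carries 2 copies, Tead2 carries none, and the single Wwtr1 site appears at 2 distances because the gene has 2 annotated starts.

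Totals ran from 4939874 to 12523616 counts per library, so that 3 counts, taken as the floor, were worth 0.284 to 0.662 CPM (read counts per library of equal size after TMM scaling). Replicate 3 of the cocultures stood apart, with 10735 genes that had a count against 12406 to 13193 elsewhere, and 1012 genes at 0 that had at least 10 counts in every other library. Values that it moved by more than 1.5 times are also given without it. The 15 MK and platelet markers summed to between 2378 and 2631 CPM in the MKs cultured alone and to between 1814 and 2392 CPM in the cocultures. Pf4, a platelet chemokine and the highest of them, was at 841 ± 210 CPM (SD, n = 4) and 1070 ± 362 CPM (SD, n = 4), with an adjusted p of 0.409 in edgeR's quasi-likelihood test with Benjamini-Hochberg adjustment. Pf4 went against most of its list. Of the 15 markers, 5 had a positive and 10 a negative log2 fold change, with a median of -0.39. In this fit 0 were called higher and 1 lower.

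Transcripts of the axis, apart from Lats2, were scarce in MKs cultured alone, and apart from Tead3 they were well above the floor in MKs cocultured with MSCs. Summed over the 9 members, the level was between 57.8 and 107 CPM in the MKs cultured alone and between 605 and 693 CPM in the cocultures. Lats2 made up most of the sum in the MKs cultured alone. Of the 9 members, 8 passed the filter on low counts, 7 of these passed the call in the direction of a higher level in coculture, and none passed it in the other direction. For comparison, 20.5% of all 11722 genes tested were called, 13.2% as higher and 7.31% as lower, and the members were chosen from this same contrast, so nothing is read from their count. Every coculture lay above every library of MKs cultured alone for 7 of the 9 members, as it did for 19.3% of all genes tested. The median fitted log2 fold change of the 8 members was 5.49, beside 0.03 for all genes tested. In bulk RNA, more cells of a type that uses a gene and more RNA of the gene per cell cannot be told apart.

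The RNA of the cocultures also held more transcripts of genes listed as MSC markers. The study reports that MKs and MSCs isolated from its cocultures were free of cross-contamination. The 10 MSC markers with a row summed to between 42.8 and 71.1 CPM in the MKs cultured alone and to between 1242 and 4122 CPM in the cocultures, where replicate 3 had the lowest sum. Of the 8 listed MSC markers tested, 7 rose and none fell, beside 13.2% of all genes called higher and 7.31% lower. Sparc, a matrix protein and the highest of the list, rose from 0.548 ± 0.433 to 963 ± 361 CPM (SD, n = 4 each), with an adjusted p of 1.8e-05 in edgeR's quasi-likelihood test with Benjamini-Hochberg adjustment. Dcn, Lum and Thy1 had no row, and Lepr and Kitl were at 0 in replicate 3 of the cocultures. Macrophage markers moved with the members too, with 7 of 8 tested higher and none lower, and summed to between 152 and 228 CPM in the MKs cultured alone against 908 to 1331 CPM in the cocultures. Csf1r, the receptor for macrophage colony-stimulating factor, rose from 105 to 263 CPM (adjusted p = 0.0127, edgeR's quasi-likelihood test with Benjamini-Hochberg adjustment), and Vsig4 had no row. Endothelial markers moved the other way, from between 71.5 and 82.0 CPM to between 13.3 and 36.3 CPM, with 0 of 4 tested higher and 1 lower, the angiopoietin receptor Tek. Cdh5, the cadherin that defines endothelial cells, was near the floor in both groups, with means of 0.402 and 0.925 CPM, and Flt4 was at 0 in the MKs cultured alone, while Stab2 and Cldn5 had no row. Tek lost its call when any 1 of the libraries of MKs cultured alone was left out. Without replicate 3 of the cocultures, where 20.6% of all genes were called higher and 15.4% lower, all 9 MSC markers and all 9 macrophage markers tested were higher, and of 5 endothelial markers 1 was higher and 3 were lower. Of the 15 MK and platelet markers, 1 was lower with that replicate and 4 were lower without it. The part of these cell types in the levels of the members was not tested.

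**Figure D2:**
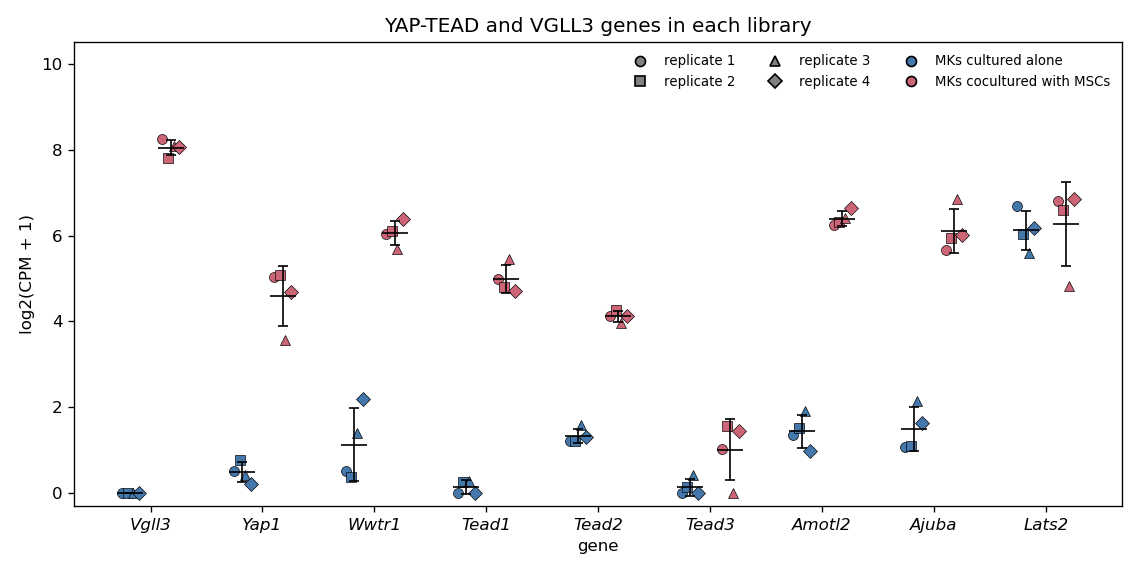
Level of each member on the log2(CPM + 1) scale (vertical axis) in the 4 libraries of MKs cultured alone and the 4 cocultures, with 1 point per library and the mean ± SD. Vgll3 is at 0 in every library of MKs cultured alone, the points of Lats2 and Tead3 overlap between groups, and those of the other 7 members do not.

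Vgll3, a cofactor that binds TEAD factors through its vestigial-like domain, was not detected in MKs cultured alone and was the most abundant member per kilobase in coculture. The gene (ENSMUSG00000091243.2) lies on the plus strand at chr16:65815257-65866368 (GRCm38). No read was assigned to it in any of the 4 libraries of MKs cultured alone. The cocultures held 302, 224, 270.4 and 266 CPM, from 3181, 1718, 2584 and 1531 counts. The groups were far apart, and the cocultures lay close together, with a mean of 265 ± 31.9 CPM (SD, n = 4). Against the floor of 3 counts per library, which averaged 0.448 CPM in the MKs cultured alone, the level in coculture was at least 592-fold higher, and at least 588-fold higher without replicate 3. That replicate held 1.03 times the mean of the other cocultures for Vgll3.

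Its relative Vgll4, a VGLL protein that competes with YAP for TEAD factors, moved in the opposite direction. Vgll4 was at 18.5, 16.2, 23.3 and 17.2 CPM in the MKs cultured alone and at 7.49, 6.12, 0.209 and 7.46 CPM in the cocultures. Every coculture lay below every library of MKs cultured alone, a pattern that 21.1% of all genes tested also had. The log2 fold change was -1.82 with an SE of 0.83 and did not pass the test (adjusted p = 0.148, edgeR's quasi-likelihood test with Benjamini-Hochberg adjustment). Without replicate 3 of the cocultures, in which Vgll4 was below the floor, the log2 fold change was -1.44 and the gene was called lower (adjusted p = 0.000163, same test), as were 15.4% of all genes in that fit. Vgll1, Vgll2 and Tead4 had no row.

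Both coactivators were low in MKs cultured alone, with Yap1 near the floor and Wwtr1 above it in replicates 3 and 4. Yap1 (ENSMUSG00000053110.13, minus strand, chr9:7931999-8004596) had 2, 7, 3 and 1 counts there, or 0.441, 0.721, 0.333 and 0.163 CPM. In the cocultures it was at 31.8, 32.7, 10.9 and 24.6 CPM. The lowest coculture was replicate 3, and it still lay well above the highest library of MKs cultured alone. The means were 0.415 ± 0.235 and 25.0 ± 10.1 CPM (SD, n = 4 each), a ratio of 60.3, and of 71.6 without replicate 3. The ratio of the summed counts was 56.1, with a 95% exact binomial interval of 32.6 to 106 that covers counting error only. An exon of Yap1 overlaps Gm20416 on the opposite strand, and the strand setting of the counting is not given in the sources used here.

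Wwtr1, the gene of TAZ (ENSMUSG00000027803.14, minus strand, chr3:57455649-57575910), was the more abundant coactivator per kilobase of merged exons and of the longest transcript, but not of the median transcript length. Its levels were 0.441, 0.309, 1.66 and 3.58 CPM in the MKs cultured alone and 65.1, 67.9, 51.0 and 82.0 CPM in the cocultures. The groups did not overlap, and within the MKs cultured alone replicates 3 and 4 were the higher ones. The means of 1.5 ± 1.51 and 66.5 ± 12.7 CPM (SD, n = 4 each) differed by a ratio of 44.4, or 47.8 without replicate 3 of the cocultures. The fitted log2 fold change was 5.46, and 6.28 without replicate 4 of the MKs cultured alone. Per kilobase of merged exons, the level of Wwtr1 was 3.97 to 9.07 times that of Yap1 across the cocultures, and 2.31 to 5.27 times per kilobase of the longest transcript. With the median transcript length the order turned, with means of 14.4 for Wwtr1 and 17.4 for Yap1. Per kilobase of merged exons the level of Vgll3 was 2.49, 1.78, 3.21 and 1.89 times the sum of both coactivators in the 4 cocultures.

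Among the DNA-binding TEAD factors, Tead1 and Tead2 made up nearly all of the transcripts in coculture and Tead3 was near the floor. Tead1 (ENSMUSG00000055320.17, plus strand, chr7:112679318-112906807) had 0, 2, 2 and 0 counts in the MKs cultured alone and 327, 207, 409 and 146 counts in the cocultures. The latter correspond to 31.0, 27.0, 42.8 and 25.3 CPM, with replicate 3 the highest. The ratio of the summed counts was 239, with a 95% exact binomial interval of 92.9 to 877. In the MKs cultured alone every library was under the floor, and the mean was 0.107 ± 0.124 CPM (SD, n = 4).

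Tead2 (ENSMUSG00000030796.17, plus strand, chr7:45215753-45233644) was detected in every library. Its levels were 1.32, 1.34, 2.0 and 1.46 CPM in the MKs cultured alone and 16.4, 18.1, 14.5 and 16.5 CPM in the cocultures. The groups did not overlap, and the coefficient of variation among the cocultures was 0.089, lower than the 0.12 of Vgll3. The mean went from 1.53 ± 0.316 to 16.4 ± 1.46 CPM (SD, n = 4 each), a ratio of 10.7. Exons of Tead2 overlap those of Cd37, a leukocyte tetraspanin gene on the opposite strand, which was at 81.2 ± 20.0 CPM in the MKs cultured alone and 34.6 ± 9.65 CPM in the cocultures. Without strand, reads from the shared stretch cannot be assigned to either gene.

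Tead3 (ENSMUSG00000002249.21, minus strand, chr17:28331671-28350817) had 0, 1, 3 and 0 counts in the MKs cultured alone. The cocultures had 11, 15, 0 and 10 counts, or 1.04, 1.95, 0 and 1.74 CPM. The groups overlap because replicate 3 of the cocultures was at 0, and the gene did not pass the filter on low counts. The ratio of the summed counts was 7.89 (95% exact binomial interval, 2.83 to 30.5). Of the summed level of the 3 TEAD genes per kilobase, Tead1 took 32.8 to 50.9% in the cocultures, Tead2 took 49.1 to 62.4%, and Tead3 at most 4.8%. In the MKs cultured alone, Tead2 took 86.4 to 100% of a much smaller sum.

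The members that act at cell junctions were also higher. Amotl2 is an angiomotin-like scaffold that binds YAP and holds it outside the nucleus, and its gene (ENSMUSG00000032531.15, plus strand, chr9:102716672-102733418) is itself a YAP/TAZ target. It was at 1.55, 1.86, 2.77 and 0.976 CPM in the MKs cultured alone and at 74.7, 78.3, 83.4 and 98.7 CPM in the cocultures. All cocultures were high, replicate 3 included, with a mean of 83.8 ± 10.6 against 1.79 ± 0.751 CPM (SD, n = 4 each) and a ratio of 46.9.

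Ajuba, a LIM-domain protein that binds LATS kinases at adherens junctions, is encoded on the minus strand at chr14:54567472-54577558 (ENSMUSG00000022178.11). It was at 1.10, 1.13, 3.44 and 2.11 CPM in the MKs cultured alone and at 49.6, 60.2, 115 and 63.5 CPM in the cocultures. Replicate 3 was the highest coculture, with 1.99 times the mean of the others, and the groups did not overlap. The means were 1.95 ± 1.10 and 72.0 ± 29.1 CPM (SD, n = 4 each), a ratio of 37.0, and of 29.7 without replicate 3.

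Lats2, the kinase that phosphorylates YAP and TAZ and whose gene is also one of their targets, behaved unlike the others. The gene (ENSMUSG00000021959.16, minus strand, chr14:57689662-57758388) was at 102, 64.3, 47.0 and 71.4 CPM in the MKs cultured alone. It was at 111, 95.3, 27.2 and 115 CPM in the cocultures. The groups overlapped, since replicate 3 of the cocultures was the lowest of all 8 libraries, and all 4 libraries of MKs cultured alone lay within the range of the cocultures. The means were 71.2 ± 23.0 and 87.2 ± 40.9 CPM (SD, n = 4 each), a ratio of 1.22 with replicate 3 and 1.51 without it. The fitted log2 fold change was 0.29, and 0.58 without replicate 3, below the 2-fold limit of the call in both fits. An exon of Lats2 overlaps Gm49361 on the same strand. Lats1, its paralog, was at 15.2 ± 2.35 and 20.3 ± 2.43 CPM (SD, n = 4 each) and was not called (adjusted p = 0.412, edgeR's quasi-likelihood test with Benjamini-Hochberg adjustment). Per kilobase, Lats2 was at 2.69 to 6.83 times the level of Lats1 in the MKs cultured alone and at 5.04, 5.72, 1.47 and 5.69 times its level in the cocultures.

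Compared per kilobase of merged exons, the order of the members in coculture began with Vgll3 at 37.3 ± 4.50 CPM per kilobase (SD, n = 4). Ajuba (19.7), Wwtr1 (13.9), Amotl2 (13.3) and Lats2 (12.5) followed, and these 4 neighbours overlapped in their ranges over the cocultures. Tead2 (3.42), Yap1 (2.70) and Tead1 (2.32) formed the next overlapping stretch, and Tead3 came last at 0.176 CPM per kilobase. The ranges did not overlap between Vgll3 and Ajuba, between Lats2 and Tead2, or between Tead1 and Tead3. In the MKs cultured alone, Lats2 was first at 10.2 CPM per kilobase, and every other member was below 1. The middle of the order depended on the gene length used. With the longest transcript, Wwtr1 came at 14.2 CPM per kilobase, behind Amotl2 at 18.9 and Lats2 at 16.8. With the median transcript length Wwtr1 ranked 8 of the 9 members at 14.4, behind Yap1 at 17.4. With that length Ajuba ranked 6 at 25.7, behind Amotl2 (105.5), Lats2 (100.7), Tead2 (29.3) and Tead1 (25.9) as well as Vgll3. Vgll3 stayed first and Tead3 last with all 3 lengths.

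**Figure D3:**
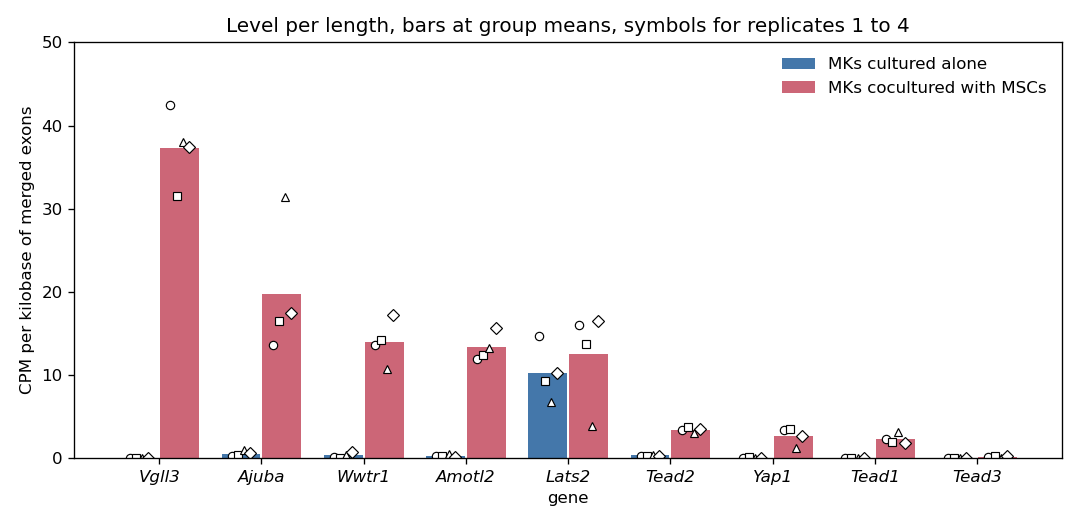
Level of each member in CPM per kilobase of merged exons (vertical axis) in MKs cultured alone and in cocultures, with bars for the group means and symbols for replicates 1 to 4. Vgll3 has the highest bar in coculture at 37.3, whereas Lats2 has the highest bar in MKs cultured alone at 10.2.

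Replicate 3 of the cocultures, the library that stood apart, did not move the members in 1 direction. Against the mean of the other cocultures, its CPM was 1.54 times as high for Tead1, 0.994 times for Amotl2, 0.856 times for Tead2, 0.711 times for Wwtr1, 0.366 times for Yap1 and 0.254 times for Lats2. Of the 8 members with at least 10 CPM in the other cocultures, 4 were lower in replicate 3 and 4 were higher on the log2(CPM + 1) scale, where Amotl2 was about even, with a median difference of -0.10. Among all 8947 genes at that level, 52.8% were lower, with a median difference of -0.14. The 9 MSC markers at that level were all lower, with a median difference of -1.97. Per 1000 CPM of summed MSC markers, the level of Vgll3 was 92.5, 54.3, 218 and 90.2 CPM in the 4 cocultures, with replicate 3 the highest. On the same scale Yap1 was at 9.74, 7.93, 8.77 and 8.36 CPM, with a coefficient of variation of 0.089. From CPM to CPM per MSC marker, the coefficient of variation went from 0.12 to 0.63 for Vgll3 and from 0.40 to 0.089 for Yap1. It also rose for Wwtr1 (0.19 to 0.41), Tead1 (0.25 to 0.89), Tead2 (0.089 to 0.51), Amotl2 (0.13 to 0.61) and Ajuba (0.40 to 1.05). It fell for Lats2 (0.47 to 0.28) and was about even for Tead3 (0.743 to 0.739). For each gene whose value rose, replicate 3 was the highest coculture per MSC marker CPM. Means per 1000 CPM of MSC markers, alone and in coculture, were 7.73 and 8.70 CPM for Yap1 and 26.8 and 26.3 for Wwtr1. They were 34.7 and 35.6 for Amotl2 and 37.9 and 35.9 for Ajuba. Vgll3 (0 and 114) and Tead1 (2.32 and 14.8) were higher in coculture. Tead2 (28.7 and 6.68), Tead3 (2.46 and 0.346) and Lats2 (1234 and 29.6) were lower. What MSC RNA contributes to these values was not tested.

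**Figure D4:**
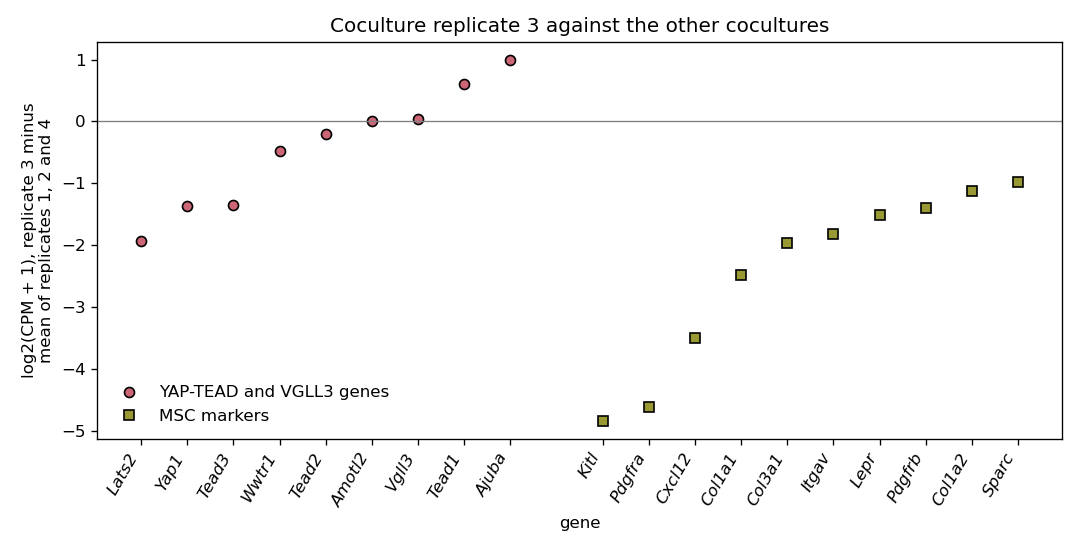
Difference between replicate 3 of the cocultures and the mean of replicates 1, 2 and 4 on the log2(CPM + 1) scale (vertical axis), for each member and each MSC marker with a row. The members lie on both sides of 0, from -1.94 (Lats2) to 0.99 (Ajuba). The 9 MSC markers with at least 10 CPM in replicates 1, 2 and 4 lie below it.

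The wider pathway was described with lists written from general knowledge, but with earlier results of these data known. Of 31 Hippo kinases and regulators, 30 had a row and 28 were tested, of which 8 rose, 3 fell and 17 did not pass the test, with a median log2 fold change of 0.46, beside 13.2% of all genes called higher and 7.31% lower. The 11 calls became 7, 7 and 6 without replicates 1, 3 and 4 of the MKs cultured alone. Without replicate 3 of the cocultures, 8 rose and 4 fell among 29 tested. Scaffolds related to members were among the genes that rose. Wtip, a LIM protein of the Ajuba family, went from 0.137 to 13.1 CPM, with a log2 fold change of 6.65 (SE 1.03, adjusted p = 0.0022, edgeR's quasi-likelihood test with Benjamini-Hochberg adjustment), and of 7.64 without replicate 4 of the MKs cultured alone. Amotl1, the paralog of Amotl2, was at 47.1, 41.2, 12.1 and 36.4 CPM in the cocultures against a mean of 0.409 CPM in the MKs cultured alone (log2 fold change 6.45, SE 0.73, adjusted p = 0.000371, same test). Amot rose by 2.51 on the log2 scale (SE 0.54, adjusted p = 0.0105, same test), and replicate 3 was its highest coculture at 63.8 CPM. Without replicate 3 its log2 fold change was 1.90.

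The called kinases went in both directions. Map4k3, a MAP4K kinase able to activate LATS, rose by 2.86 on the log2 scale from 5.50 CPM (SE 0.50, adjusted p = 0.00382, edgeR's quasi-likelihood test with Benjamini-Hochberg adjustment). Its relative Map4k2 had a log2 fold change of -2.40 (SE 0.68, adjusted p = 0.0348, same test), a call that was lost when any library of MKs cultured alone, or replicate 1 or 2 of the cocultures, was left out. Stk26, a kinase of the Mst3 and Mst4 branch, dropped from 177 to 34.2 CPM, a log2 fold change of -2.37 (SE 0.32, adjusted p = 0.000991, same test). Stk4, the gene of Mst1, had a log2 fold change of -1.42 (adjusted p = 0.00149, same test), and that of Mst2, Stk3, had 0.71 and did not pass the test (adjusted p = 0.0730, same test). Of the remaining called genes, Rassf1, Frmd6, Map4k4 and Stk25 rose by between 1.15 and 1.90 on the log2 scale, but without replicate 3 of the cocultures Rassf1 was at 1.28 and Map4k4 and Stk25 were under the 2-fold limit.

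Target genes of YAP and TAZ outside the members were mostly higher in coculture. The list held 20 genes, all with a row, and 16 were tested. Of these, 10 rose, 1 fell and 5 did not pass the test, beside 13.2% of all genes called higher and 7.31% lower. The median log2 fold change was 4.93, or 4.69 with Ccn1 and Igfbp3, which were at 0 in MKs cultured alone, set to their lower bounds. Ankrd1, Fjx1, Foxf2 and Tgfb2 did not pass the filter on low counts with replicate 3. Without that replicate all 20 genes were tested, 15 rose and 2 fell, beside 20.6% of all genes called higher and 15.4% lower.

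Ccn2, a matricellular protein and classical YAP target, was at 0, 0.103, 0 and 0.163 CPM in the MKs cultured alone. In the cocultures it was at 957, 1283, 259 and 897 CPM, and it was called higher with an adjusted p of 2.2e-05 (edgeR's quasi-likelihood test with Benjamini-Hochberg adjustment). Its close relative Ccn1 had no count in the MKs cultured alone and was at 204, 356, 51.2 and 200.4 CPM in the cocultures, at least 453-fold higher (adjusted p = 0.000734, same test). For both genes the lowest coculture was replicate 3. Axl, a receptor tyrosine kinase on the target list, was at 5.52, 9.59, 5.32 and 6.18 CPM in the MKs cultured alone and at 540, 618, 250.3 and 631 CPM in the cocultures. Its log2 fold change was 6.25 (SE 0.41, adjusted p = 2.55e-05, same test), and replicate 3 was again the lowest coculture.

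The matrix gene Ccdc80 rose from 0.633 ± 0.603 to 73.4 ± 14.1 CPM (SD, n = 4 each), a log2 fold change of 6.80 (adjusted p = 0.000628, edgeR's quasi-likelihood test with Benjamini-Hochberg adjustment), and of 7.71 without replicate 3 of the MKs cultured alone. Myof, a membrane repair protein, rose from 1.20 ± 0.560 to 111 ± 7.55 CPM (log2 fold change 6.49, adjusted p = 1.98e-05, same test) and was even across the cocultures. Rbms3 went from 0.0407 to 79.8 ± 67.2 CPM (adjusted p = 0.000159, same test), with replicate 3 the highest coculture at 180.4 CPM and a mean of 46.3 ± 5.66 CPM (SD, n = 3) without it. Its single count in the MKs cultured alone was in replicate 4. Igfbp3 went from 0 to 15.7 ± 18.6 CPM, at least 35.1-fold higher (adjusted p = 0.00961, same test). Without replicate 3, which was at 43.4 CPM, Igfbp3 was at 6.47 ± 2.98 CPM (SD, n = 3), at least 14.4-fold higher. The gene that fell was Nt5e, the ecto-5′-nucleotidase CD73, which went from 76.7 ± 10.7 to 6.04 ± 3.77 CPM (SD, n = 4 each, log2 fold change -3.66, adjusted p = 0.00289, same test). In replicate 3 of the cocultures, 12 of the 16 targets with at least 10 CPM elsewhere were lower than in the other cocultures, with a median difference of -0.88 on the log2(CPM + 1) scale.

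**Figure D5:**
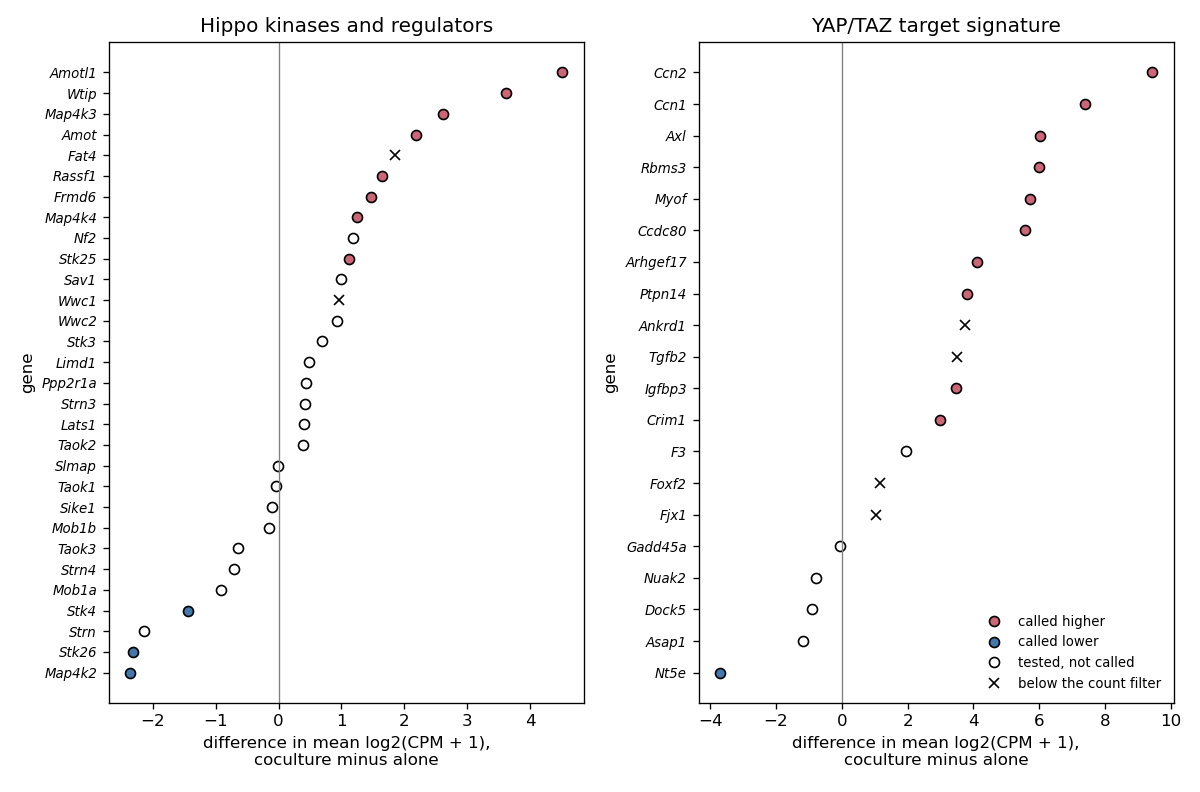
Difference in mean log2(CPM + 1), coculture minus alone (horizontal axis), for each Hippo regulator and each YAP/TAZ target gene, coloured by whether the gene was called higher, called lower, not called or below the filter on low counts. The Hippo regulators lie on both sides of 0, with 8 called higher and 3 lower, whereas 10 targets are called higher and only Nt5e is called lower.

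The genes whose pattern over the 8 libraries was most like that of the axis were found by the Pearson correlation of log2(CPM + 1), among 9616 genes with a mean of at least 10 CPM in 1 group. All 8 points share the division into the 2 culture conditions, and 539 genes had an r above 0.95 with the mean of the 8 tested members. The highest were Col8a1, a short-chain collagen (0.096 and 155 CPM in MKs cultured alone and in cocultures), Crip2 (0.216 and 202 CPM), the chemokine Ccl2 (1.04 and 488 CPM), Coch (0 and 162 CPM) and the chemokine Ccl7 (0.0813 and 544 CPM). For Vgll3 alone, 564 genes had an r above 0.95. The highest were Map1b, a microtubule-associated protein (0.295 and 78.5 CPM), the macrophage elastase Mmp12 (5.36 and 2371 CPM) and the growth factor Fgf7 (0 and 229.5 CPM). Within the axis, Vgll3 was closest to Tead1 (r = 0.996 over 8 libraries), and Tead2 to Amotl2 (r = 0.995). These values describe the same split between conditions and carry no test.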

How the data were processed

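RNA was measured in 8 bulk libraries, 4 per group, grouped and numbered as in the labels. The authors deposited a table of raw gene counts. Per the methods, reads of low-input SMART-Seq libraries were filtered with fastp and quantified with kallisto on mm10. How transcripts were summed and whether strand was used is not given in the sources used here.

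Groups were compared in edgeR 4.0.16 under R 4.3.3, with TMM factors, filterByExpr and the robust quasi-likelihood test, over 11722 genes of all 8 libraries and without covariates. The study's own design held a batch term, but the batches are not named in the sources used here, so none was fitted. A gene counted as called when it changed at least 2-fold, had an adjusted p (Benjamini-Hochberg) not above 0.05 and reached a group mean of 1 CPM, after the study's cutoffs. Members and lists were chosen with earlier results of these data known, so members carry no test. Named genes were all members and listed relatives, the 6 largest called changes of the regulator and target lists plus Axl, Ccn1 and Ccn2, the highest gene of each marker list, and the genes closest to the members (5) and to Vgll3 (3). Other listed genes, such as Lats1, Stk3, Stk4 and Nt5e, were chosen after their values were seen. Positions and lengths came from GENCODE on GRCm38, and promoters from RefSeq, where 8 of 9 members matched. Protein sequences were not used here.

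Totals of 4939874 to 12523616 counts put 3 counts at 0.284 to 0.662 CPM. Intervals and floors cover counting error only, since the reads carry no molecular identifiers. In simulated counts for this comparison, 196 of 200 genes changed 8-fold were called by edgeR, with 8 others among 11655 genes, and DESeq2 1.42.0 called 196 and 14 others. The simulated libraries shared the same base profile and a fixed dispersion, and none stood apart as replicate 3 of the cocultures does. These counts therefore need not hold for the real libraries. Alternatives were DESeq2, scaling by RLE, by library size alone or to MK and platelet markers, looser and stricter filters, the replicate number as a block, each library left out, and other gene lengths for levels per kilobase. Figures were drawn in Python 3.11.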

Additional observations from a re-analysis of the deposited data

Results flagged for a closer look

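In groups of 4 libraries, a library was listed here when its distance to its nearest neighbour took up more of the range of the group than Dixon's 95% critical value allows, which chance alone gives in about 1 in 20 groups. Of 34 groups examined, 5 had such a library, and in 4 of them it was replicate 3 of the cocultures. Lats2 was at 4.82 on the log2(CPM + 1) scale in that replicate, below the other cocultures. The mean log2(CPM + 1) of the Vgll relatives, which is the level of Vgll4 alone, was 0.27 there. The mean of the YAP/TAZ targets was 3.97 there, and that of the MSC markers was 4.57, both the lowest among the cocultures. The mean of the Hippo kinases and regulators was 4.84 in replicate 1 of the MKs cultured alone, away from the other 3 libraries of that group.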

How the results depend on the processing

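The 7 members called higher kept that call under all 7 alternatives run on the 8 libraries and with each library left out, and Lats2 was called in none. The fitted log2 fold changes ranged from 5.57 to 6.28 for Yap1, 5.11 to 6.28 for Wwtr1, 7.46 to 8.21 for Tead1, 3.33 to 3.70 for Tead2, 5.30 to 5.80 for Amotl2, 4.81 to 5.60 for Ajuba and 0.11 to 0.64 for Lats2. DESeq2 called 3116 genes against 2401. Scaling to MK and platelet markers called 2756 genes, of which 80.9% were higher against 64.3%, left 526 lower against 857, and shifted the median over all genes from 0.03 to 0.34 (log2). Same-numbered libraries deviated together with r of 0.37, 0.020, 0.15 and 0.028, and not every library was closest to its own number, so the numbers were not taken to pair the samples. With the replicate block 1669 genes were called, 0 endothelial and 0 MK and platelet markers were called against 1 each, and Amot, Igfbp3, Map4k2 and Tek lost their calls. Map4k2 also lost its call when scaled by library size alone or to the markers. DESeq2 called 2 MK and platelet markers. Leaving out 1 library gave 1634 to 4420 called genes (1071 to 2530 higher, 539 to 1890 lower), the highest without replicate 3 of the cocultures. The same fits gave 0 to 1 relatives, 6 to 12 Hippo regulators, 11 to 17 YAP/TAZ targets, 0 to 4 endothelial and 0 to 4 MK and platelet markers. Hippo regulators fell from 11 to 7, 7 and 6 without replicates 1, 3 and 4 of the MKs cultured alone. Summed over members, the level per kilobase in coculture was 105 with merged exons, 463 with median transcript length and 122 with the longest transcript, which was added after seeing the data. The cause of these shifts was not tested. The low counts of Tead3 limit what can be said of it.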
